A study of Mus musculus with 6 samples.

Results

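The genes described here encode the core of the spliceosome, the RNA and protein machine that removes introns from pre-mRNA. They were taken by symbol from a fixed list of 59 genes, of which 58 have a row among the 23235 gene rows of the expression table; Lsm8 has none under that symbol. All 58 passed the filter used for testing, a mean FPKM of 1 or more over the libraries (FPKM are fragments per length of transcript and sequencing depth). Polyadenylated RNA came from C57BL/6 mouse oocytes that were fully grown and still held their germinal vesicle (GV), the large nucleus of the arrested oocyte; they were collected 44 to 48 h after PMSG, a gonadotropin that stimulates follicle growth. The WT group and the Rtcb knock-out (KO) group had 3 libraries each, every library made from 10 oocytes, and the sample titles of both groups carry the tag 6W. The sources used here give neither the deleted part of Rtcb nor any Cre driver. The labels do not tie libraries to single animals, so a p-value here reflects spread between libraries that may be only technical.

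Splicing is carried out by small nuclear ribonucleoproteins (snRNPs). A ring of Sm proteins is loaded onto the U1, U2, U4 and U5 snRNAs, and an Lsm ring onto U6. U1 binds the 5′ splice site and U2 the branch site, the U4/U6.U5 tri-snRNP then joins, and the Prp19 complex and a series of RNA helicases remodel the assembly into its active form. RTCB is a ligase of a different kind of splicing: it joins tRNA exons and the cut Xbp1 mRNA, and is not a spliceosome component. Growing oocytes transcribe and splice heavily, whereas fully grown GV oocytes are largely silent and rely on stored mRNA. The series concerns mRNA splicing in oocytes without this ligase, and the comparison made here asks how the transcripts of the splicing machinery itself differ between the genotypes. The values are per gene; isoforms and splice sites were not analysed here.

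The libraries carried their labelled genotype and tissue. Rtcb, listed as D10Wsu52e, was at 113 to 136 FPKM in WT and 2.49 to 3.82 FPKM in KO. The 8 oocyte markers examined summed to 24302 to 28430 FPKM in WT and 15884 to 16978 FPKM in KO. The 15 markers of follicle somatic cells summed to 60.4 to 66.8 FPKM in WT and 47.5 to 60.9 FPKM in KO; 7 of them reached 1 FPKM in some library and 0 were at 0 in every library, and their part in the results was not tested. In such pooled samples, fewer cells and less RNA per cell cannot be told apart. Read depth is unknown, because these FPKM do not keep it.

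The scaling of the deposited values bears on every direction below. From the digits of the values, all WT columns were found to carry a common factor of 2 and all KO columns one of 1.33, a KO to WT ratio of 0.667, or −0.58 on the log2 scale. The median log2 fold change of all 12029 tested genes was −0.47 as deposited, −0.094 with every library set to the same total, −0.0094 with median-ratio rescaling and 0.043 with the genotype factors removed. A member is therefore said to have risen or fallen only if limma called it in that direction, at a Benjamini-Hochberg adjusted p under 0.05, under all 4 of these scalings. The scalings use the same values and mostly shift all genes together, so they are not independent checks. All 2161 genes called lower with the factors removed were called lower under all 4. Of the 1118 called higher as deposited, 1110 were called higher under all 4. FPKM, fold sizes, log2 fold changes on log2(FPKM + 1) and adjusted p-values are as deposited unless a sentence says otherwise.

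Under all 4 scalings, 3 of the 58 members rose and 14 fell. The 3 that rose were Snrpb, Txnl4a and Prpf4. Those that fell were Sf3a1, Sf3a3, Sf3b1, Sf3b2 and Sf3b3 of the U2 snRNP, Prpf8, Snrnp200 and Eftud2 of the U5 snRNP, Prpf3, Prpf31 and Usp39 of the tri-snRNP, and Xab2, Dhx16 and Cwc22. Among all tested genes 9.23% rose and 18.0% fell by the same condition, so the members' shares, 3 of 58 and 14 of 58, are not far from the background and are not a result about the members as a whole.

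As deposited, limma called 3 members higher and 40 lower in KO, against a background of 9.29% higher and 54.0% lower. At an unadjusted p under 0.05 these were 3 and 42. With equal totals 10 were higher and 19 lower (19.0% and 25.8% of all genes), with median ratios 12 and 17 (23.4% and 21.2%), and with the factors removed 12 and 14 (25.7% and 18.0%). The median log2 fold change of the members was −0.56, which is 0.088 below that of all tested genes. It lay 0.022 to 0.036 below under the other scalings. WT and KO values did not overlap for 43 members, 3 with KO above and 40 with KO below; for all tested genes these shares were 10.2% and 57.5%.

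**Figure D1:**
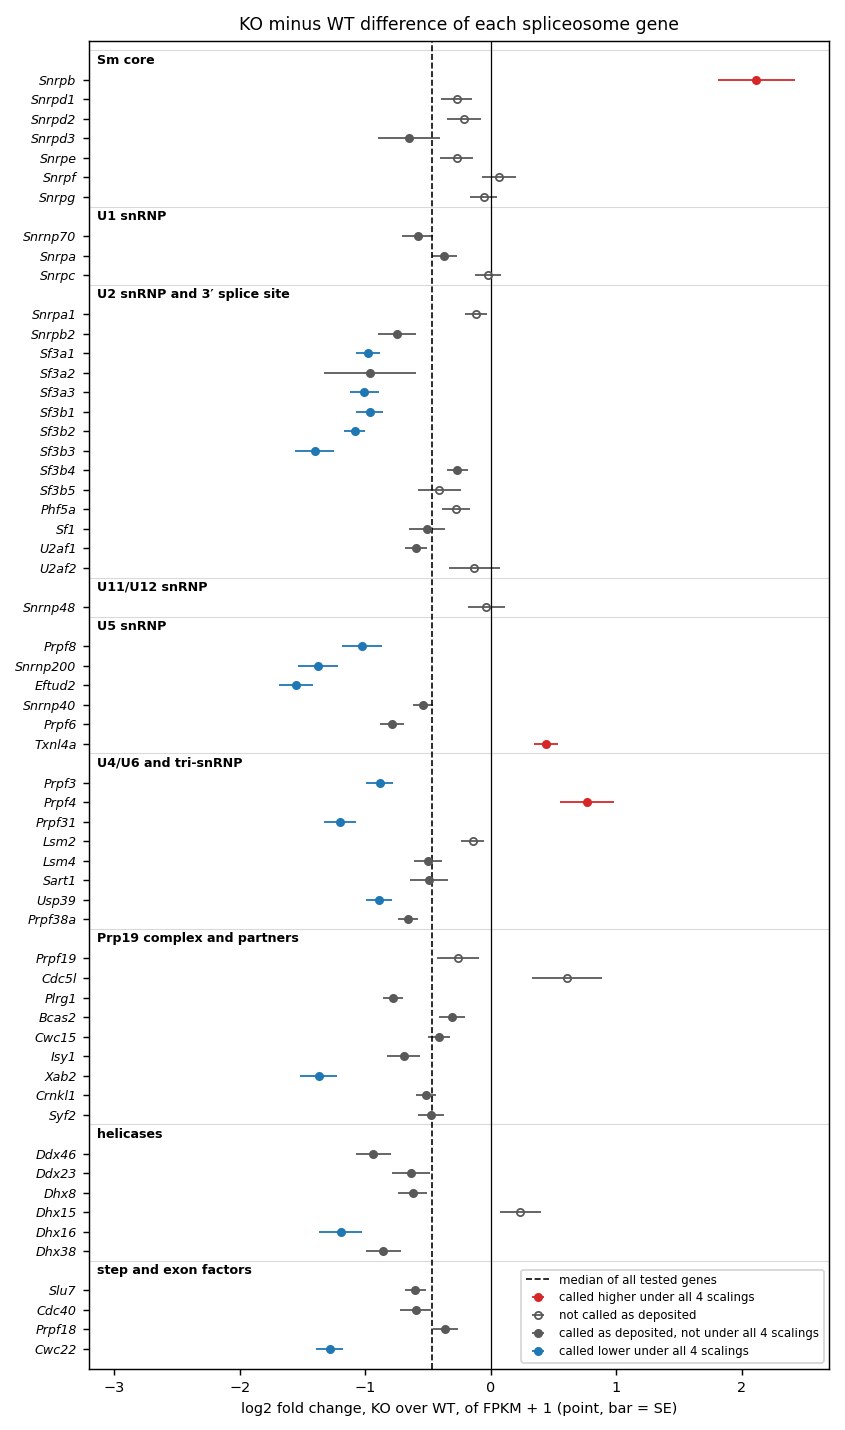
The log2 fold change of FPKM + 1 (KO over WT, as deposited) is on the x axis and the 58 members, ordered by role, are on the y axis; bars are the standard error from limma, and the dashed line is the median of all tested genes at −0.47. Red points (3 members) and blue points (14 members) were called in that direction under all 4 scalings; the core Sm genes lie to the right of the dashed line except Snrpd3, and the large U5 and U2 subunits lie to its left.

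Levels differed widely between members of the same machine. In WT the highest member was Snrpg at 1613 FPKM and the lowest Ddx23 at 1.45 FPKM, with a median of 87.1 FPKM against 19.2 FPKM for all tested genes. In KO the same 2 genes were the extremes, at 1545 and 0.579 FPKM, with a median of 66.6 against 13.5 FPKM. Of the 58 members, 51 lay above the median of tested genes in either genotype. FPKM are scaled for transcript length. Capture through the poly(A) tail and reads split between near-identical copies were not corrected for here, so comparisons between genes are approximate.

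**Figure D2:**
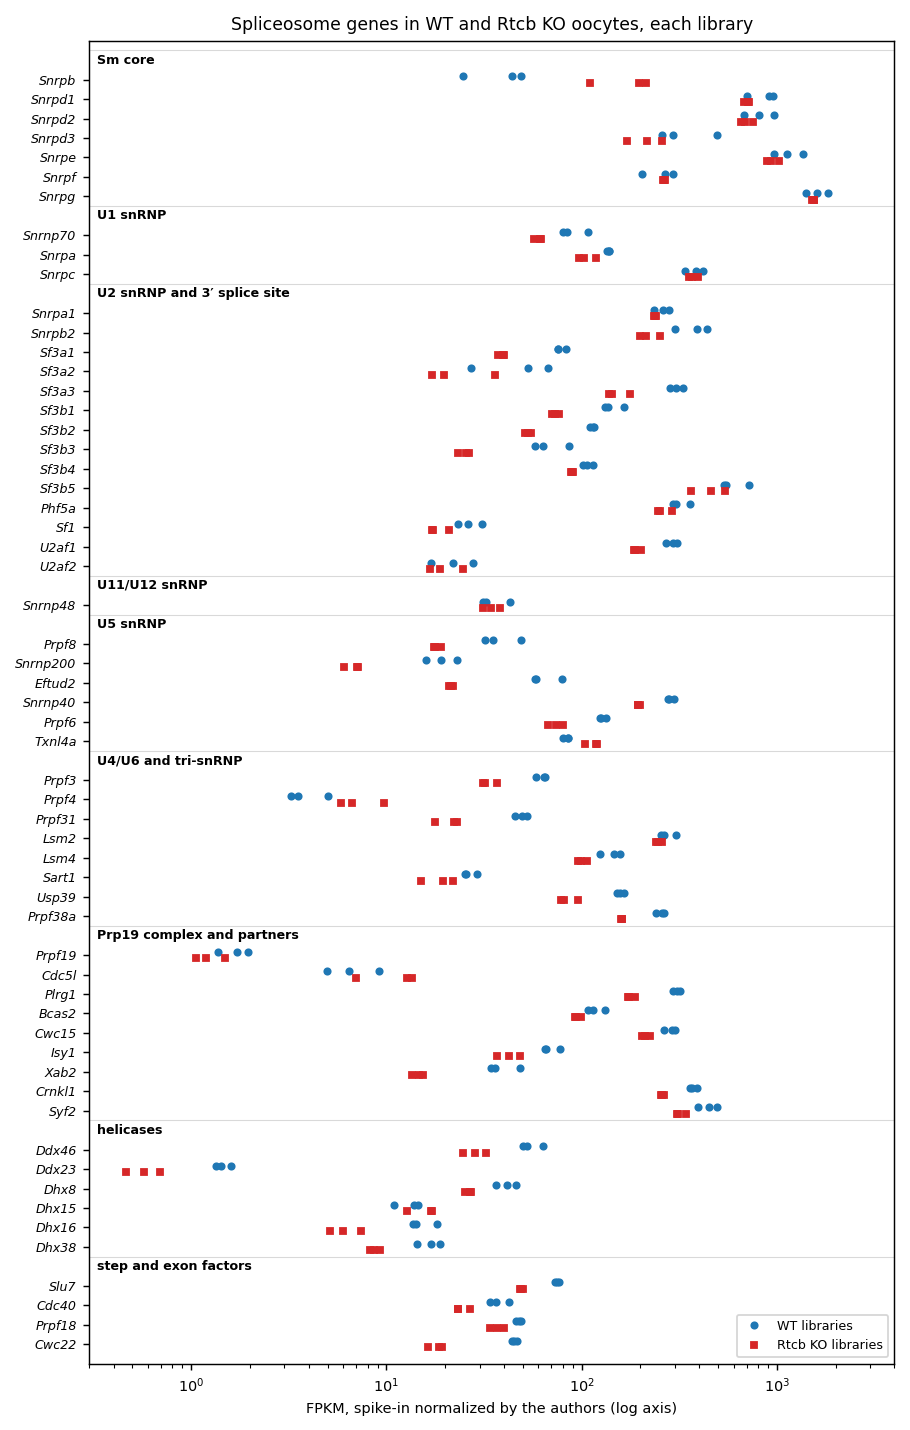
Spike-in normalized FPKM of each spliceosome gene (log x axis) in every WT library (circles) and every KO library (squares), ordered by role. Snrpb, Txnl4a and Prpf4 have all KO points to the right of the WT points, while Eftud2, Snrnp200, Sf3b3 and Xab2 have all KO points well to the left.

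The Sm core held both the members of highest FPKM and the largest rise. Its genes encode the ring proteins common to the U1, U2, U4 and U5 snRNPs. Snrpb, which encodes SmB, had 44.0, 48.6 and 24.8 FPKM across the WT libraries and 197, 110.3 and 212 FPKM across the KO libraries. The lowest KO library, KO 2, was still above the highest WT library. Its mean rose 4.42-fold from 39.1 ± 12.6 to 173 ± 54.9 FPKM (SD, n = 3, log2 fold change 2.12, SE 0.307, limma adjusted p = 0.000667). With its sign, that log2 fold change was higher than in 99.4% of tested genes. With the factors removed the log2 fold change was 2.67 (limma adjusted p = 0.00107). In WT, Snrpb had the lowest FPKM of the Sm genes by a wide margin, at 0.0272 to 0.0649 of the median Sm gene of the same library. In KO it stood at 0.154 to 0.308 of that median, a ratio that no scaling of a whole library can alter. It moved from place 44 to place 19 among the 58 members by mean level. Snrpn, the close paralog of Snrpb, with which reads could be shared, was at 29.2 ± 3.27 FPKM in WT and 26.2 ± 5.36 FPKM in KO and was not called (limma adjusted p = 0.417). The ratio of Snrpb to Snrpn, chosen after the values were seen, was 0.947 to 1.69 in WT and 5.50 to 7.29 in KO.

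The other Sm genes did not share this rise. Snrpg, for SmG, was at 1613 ± 213 FPKM in WT and 1545 ± 20.4 FPKM in KO. Its groups overlapped, and it was not called as deposited (log2 fold change −0.054, SE 0.108), though limma called it higher under the 3 other scalings. Snrpf, for SmF, behaved the same way, at 255 ± 46.9 and 264 ± 3.05 FPKM (log2 fold change 0.069), and was likewise called higher only after rescaling. Snrpd1, Snrpd2 and Snrpe, for SmD1, SmD2 and SmE, were called under none of the 4 scalings, with deposited log2 fold changes of −0.27, −0.21 and −0.27. Relative to the Sm median, Snrpe stood at 1.43 ± 0.0569 in WT and 1.38 ± 0.0394 in KO, and the groups overlapped. In every library that median was the value of Snrpd1 or Snrpd2 itself, so the ratio cannot describe those genes. Snrpd3, for SmD3, was at 293, 491 and 257 FPKM in WT and at 217, 171 and 257 FPKM in KO. The groups touch, since the lowest WT and highest KO value are nearly equal, and its call as deposited (log2 fold change −0.65, limma adjusted p = 0.0476) was lost under each other scaling and without WT 1, WT 2, KO 1 or KO 2 (limma adjusted p from 0.0642 to 0.148). SmB and SmD3 enter the ring as a pair, and the ratio of Snrpb to Snrpd3 was 0.0963 to 0.150 in WT and 0.646 to 0.905 in KO. That ratio was chosen after the values were seen. Because several Sm genes have near-identical processed copies, reads may be split and their values are uncertain.

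Summed over the 7 genes, the Sm core took 0.339%, 0.402% and 0.419% of the summed FPKM in the WT libraries and 0.468%, 0.460% and 0.476% in the KO libraries. All KO libraries lay above all WT libraries, with means of 0.387 ± 0.0423% and 0.468 ± 0.00798% (n = 3). The share is free of the genotype factors. As an amount, the deposited sum was 5080 ± 701 FPKM in WT and 4546 ± 112 FPKM in KO, and the groups overlapped. No test was made on these sums.

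The U1 snRNP recognises the 5′ splice site. Snrnp70, for the U1-70K protein that holds the particle together, was at 80.1, 107 and 84.6 FPKM in WT and at 61.0, 57.0 and 61.6 FPKM in KO. The groups did not overlap, and limma called it lower as deposited (log2 fold change −0.58, adjusted p = 0.00424), but not under the other scalings, where its log2 fold change was −0.15, −0.062 and −0.0029. Snrpa, for the A protein of U1, which binds a stem-loop of the snRNA, was at 135, 138 and 138 FPKM in WT and at 103, 119 and 96.6 FPKM in KO. It was also lower only as deposited (log2 fold change −0.37, limma adjusted p = 0.0118), and its sign turned under the 3 other scalings. Snrpc, for the C protein of U1, which contacts the 5′ splice site duplex, differed by less than the spread between libraries (380 ± 39.6 and 374 ± 19.8 FPKM) and was higher under the rescalings. The share of the library taken by the 3 genes was 0.0464 ± 0.00235% in WT and 0.0556 ± 0.00225% in KO, with no overlap. Snrnp48, for a protein of the U11/U12 particle that serves the rare minor introns, was at 35.6 ± 6.49 and 34.5 ± 3.48 FPKM (log2 fold change −0.035) and was called higher only with median ratios or with the factors removed.

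Of 14 genes for the U2 snRNP and the factors that read the branch site and 3′ splice site, 5 fell under all scalings. Among all tested genes 18.0% did. All 5 encode subunits of SF3a or SF3b, while the small subunits of SF3b did not fall under all scalings. SF3a and SF3b are the complexes that fix U2 on the branch site. Sf3b3, for a scaffold subunit, was at 85.8, 57.5 and 63.3 FPKM in WT and at 26.4, 23.4 and 25.4 FPKM in KO. The KO values were tightly grouped, and the lowest WT library was far above them. It fell 2.75-fold (log2 fold change −1.40, SE 0.154, limma adjusted p = 0.000239). Sf3b2, a subunit that contacts the pre-mRNA near the branch site, was at 116, 111 and 114 FPKM in WT and at 51.0, 53.4 and 55.0 FPKM in KO and fell 2.14-fold (limma adjusted p = 0.000162). Sf3b1, the subunit that cradles the branch site, was at 132, 137 and 165 FPKM in WT and at 70.3, 73.1 and 76.5 FPKM in KO and fell 1.97-fold (limma adjusted p = 0.000246). These 3 were the members of SF3b that fell under all scalings, though with the factors removed Sf3b1 lost its call without KO 1 (limma adjusted p = 0.0726).

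SF3a subunits followed. Sf3a3 was at 282, 304 and 330.5 FPKM in WT and at 142, 176 and 138 FPKM in KO (log2 fold change −1.01, limma adjusted p = 0.000291). Sf3a1 was at 82.8, 75.4 and 75.2 FPKM in WT and at 39.5, 37.2 and 40.2 FPKM in KO (log2 fold change −0.98, limma adjusted p = 0.000174). In both genes every KO library was far below every WT library. With the factors removed, the call of Sf3a3 was lost without WT 2, WT 3, KO 1 or KO 3 (limma adjusted p from 0.0578 to 0.0817). Sf3a2, the remaining subunit, had a like deposited log2 fold change of −0.96, but its values spread widely (49.1 ± 20.4 and 24.3 ± 10.3 FPKM) and overlapped. Its call (limma adjusted p = 0.0481) was lost under the 3 other scalings (from 0.231 to 0.404), with a pseudocount of 5 (0.0503), with no filter (0.101), without intensity trend (0.0613) and without WT 2, WT 3, KO 1 or KO 3 (from 0.126 to 0.162).

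The small SF3b proteins were different. Their genes also have fewer exons: 6 in Sf3b4, 1 in Sf3b5 and 4 in Phf5a. Sf3b1, Sf3b2 and Sf3b3 have 25, 21 and 26, and over all tested genes more exons went with lower log2 fold changes (below). Whether the difference goes with subunit role or exon number was not tested. Sf3b4, which sits on the RNA upstream of the branch site, was 107 ± 6.55 FPKM in WT and 89.1 ± 0.704 FPKM in KO, so it was called lower as deposited (log2 fold change −0.27, limma adjusted p = 0.0267) and higher with the factors removed (0.31, adjusted p = 0.02005) or median ratios. The deposited call was lost without WT 2, KO 1 or KO 3 (limma adjusted p from 0.0699 to 0.101) and without intensity trend (0.0543). Sf3b5 and Phf5a, the smallest subunits, were called under none of the 4 scalings (deposited log2 fold changes −0.41 and −0.27). Within a library, Sf3b3 stood at 0.534 ± 0.135 of the median of this group in WT and 0.309 ± 0.0210 in KO, while Phf5a went from 2.46 ± 0.111 to 3.24 ± 0.301 of it.

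Of the proteins that bind the 3′ splice site, U2af1, the small U2AF subunit that reads the terminal AG, was at 290.1 ± 19.9 and 192 ± 8.64 FPKM. U2af2, its large partner that binds the polypyrimidine tract, was at 22.2 ± 5.37 and 20.1 ± 4.22 FPKM. The FPKM of the heterodimer's genes were thus unequal in both genotypes, with a ratio of 11.2 to 15.9 in WT and 7.48 to 12.1 in KO. U2af1 and Sf1, which binds the branch site before U2, were lower only as deposited (Sf1 not without WT 2, limma adjusted p = 0.0591), and U2af2 was called under none. Snrpa1 and Snrpb2 encode the A′ and B″ proteins of U2, which pair on its snRNA. Snrpb2 was lower as deposited (376 ± 70.7 and 222 ± 26.5 FPKM), whereas Snrpa1 was not called as deposited (259 ± 22.2 and 238 ± 2.19 FPKM) and was higher after rescaling.

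Of 6 members in the U5 snRNP, 3 fell and 1 rose, against 18.0% and 9.23% of all tested genes. So few genes give no result about the particle as a whole. Eftud2, with the lowest log2 fold change of all members, encodes the GTPase SNU114 that regulates spliceosome activation and disassembly. It was at 79.4, 58.4 and 57.9 FPKM in WT and at 20.8, 21.4 and 21.8 FPKM in KO. The KO values were closely grouped and far below WT. It fell 3.05-fold (log2 fold change −1.55, SE 0.138, limma adjusted p = 0.000164), lower than all but 1.76% of tested genes. Snrnp200, for the helicase BRR2 that unwinds U4 from U6, was at 19.1, 15.9 and 22.9 FPKM in WT and at 6.09, 7.10 and 7.11 FPKM in KO and fell 2.85-fold (limma adjusted p = 0.000285). Prpf8, for the large scaffold protein at the heart of the catalytic core, was at 35.2, 31.8 and 48.7 FPKM in WT and at 17.6, 19.0 and 17.8 FPKM in KO and fell 2.13-fold (limma adjusted p = 0.00095). With the factors removed Prpf8 was close to the threshold (limma adjusted p = 0.0482), and its call was lost without WT 1, WT 3, KO 1, KO 2 or KO 3 (from 0.0713 to 0.125). These genes encode the proteins that bind each other in the U5 core.

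Txnl4a, for the small U5 protein DIM1, went the opposite way. It was at 85.3, 80.1 and 85.0 FPKM in WT and at 120.1, 104 and 118 FPKM in KO. All KO libraries were above all WT libraries, with KO 2 again the lowest of the KO libraries. The rise was 1.36-fold as deposited (log2 fold change 0.44, limma adjusted p = 0.00413) and 1.01 on the log2 scale with the factors removed. The ratio of Txnl4a to Eftud2 was 1.07 to 1.47 in WT and 4.83 to 5.76 in KO. The pair was chosen after the values were seen and joins a risen gene with the member of lowest log2 fold change. Prpf6, which bridges U5 to U4/U6, and Snrnp40, a WD-repeat protein of U5, were lower as deposited (128 ± 4.47 to 73.7 ± 6.30 FPKM and 285 ± 11.4 to 196 ± 3.18 FPKM). Prpf6 lost its call with the factors removed (limma adjusted p = 0.109) and Snrnp40 under every rescaling.

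Tri-snRNP and U4/U6 genes also split. Prpf31, which locks U4 and U6 together and joins them to U5, was at 49.6, 52.5 and 45.7 FPKM in WT and at 17.7, 23.0 and 22.1 FPKM in KO and fell 2.35-fold (log2 fold change −1.20, limma adjusted p = 0.000223). Prpf3, a U4/U6 protein, was at 64.2, 64.7 and 58.3 FPKM in WT and at 36.9, 31.4 and 31.9 FPKM in KO (log2 fold change −0.88, limma adjusted p = 0.000315). Usp39, needed to bring the tri-snRNP to the spliceosome, was at 165, 156 and 151 FPKM in WT and at 78.2, 95.5 and 81.0 FPKM in KO (log2 fold change −0.89, limma adjusted p = 0.00028). All these genes had KO libraries entirely below WT. With the factors removed Prpf3 and Usp39 were near the threshold (limma adjusted p = 0.0446 and 0.0409). On that scaling the call of Prpf3 was lost without WT 1, WT 2, KO 2 or KO 3 (limma adjusted p from 0.0972 to 0.137). That of Usp39 was lost without WT 1, WT 2, WT 3, KO 1 or KO 3 (limma adjusted p from 0.0543 to 0.137).

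Prpf4, whose product binds PRPF3 in U4/U6, rose instead. It was at 5.0003, 3.51 and 3.24 FPKM in WT and at 9.73, 5.88 and 6.65 FPKM in KO (log2 fold change 0.77, SE 0.217, limma adjusted p = 0.0153). The groups were apart but near each other, since the highest WT and lowest KO library differ by less than 1 FPKM. The call as deposited was lost without WT 2 (limma adjusted p = 0.0559) or KO 1 (0.0514). Prpf3 had 12.8 to 18.4 times the FPKM of Prpf4 in WT and 3.80 to 5.35 times in KO, a pair chosen after the values were seen. Of the Lsm ring genes, Lsm2 (274 ± 25.0 and 248 ± 8.66 FPKM) was not called as deposited and higher after rescaling, and Lsm4 (143 ± 17.2 and 100.3 ± 5.43 FPKM) was lower only as deposited. Sart1, a tri-snRNP protein that recruits it to the pre-spliceosome, was lower only as deposited and not without WT 2 or KO 1 (limma adjusted p = 0.0854 and 0.0708), and Prpf38a, which joins with the tri-snRNP, was lower as deposited and with equal totals.

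The Prp19 complex and its partners stabilise the activated spliceosome. Xab2, the mouse SYF1, was at 48.4, 35.9 and 34.5 FPKM in WT and at 13.5, 15.4 and 14.7 FPKM in KO. It fell 2.72-fold (log2 fold change −1.37, SE 0.149, limma adjusted p = 0.000235). Of the 9 members of this group it alone fell under all scalings, as did 18.0% of all tested genes. Plrg1, a WD-repeat protein of the complex, was at 319, 293 and 307 FPKM in WT and at 174, 188 and 174 FPKM in KO. The groups were well apart (log2 fold change −0.78, limma adjusted p = 0.000218), but the call was lost with the factors removed (adjusted p = 0.0841). Bcas2, Cwc15, Isy1, Crnkl1 and Syf2, other components, were lower as deposited only, with log2 fold changes from −0.69 to −0.31. Bcas2 lost its call without WT 2, KO 1, KO 2 or KO 3 (limma adjusted p from 0.0502 to 0.106) and without intensity trend (0.0532).

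Transcripts of Prpf19 and Cdc5l had low FPKM, unlike those of Plrg1 and Bcas2 of the same complex, at means of 307 and 118 FPKM in WT. Prpf19, the ubiquitin ligase that names the complex, was at 1.68 ± 0.294 FPKM in WT and 1.24 ± 0.219 FPKM in KO, overlapping and not called under any scaling. Cdc5l, its core partner, was at 6.85 ± 2.15 FPKM in WT and 11.1 ± 3.56 FPKM in KO. As deposited it overlapped and was not called (limma adjusted p = 0.0872), whereas it was higher under the 3 rescalings. Plrg1, which binds both, had 149 to 232 times the FPKM of Prpf19 in WT and 117 to 178 times in KO.

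The helicases drive each rearrangement with ATP. Dhx16, for PRP2, which starts the first catalytic step, was at 18.2, 14.2 and 13.6 FPKM in WT and at 5.97, 5.12 and 7.38 FPKM in KO. The groups did not overlap, and it fell 2.497-fold (log2 fold change −1.20, limma adjusted p = 0.000649). With the factors removed its call was lost without WT 1 or KO 1 (limma adjusted p = 0.0594 and 0.0525). Ddx46, for PRP5, which acts with U2 at the branch site, was at 50.2, 52.5 and 63.6 FPKM in WT and at 24.8, 32.4 and 28.3 FPKM in KO (log2 fold change −0.94, limma adjusted p = 0.00071) and missed the threshold with the factors removed (adjusted p = 0.063). Dhx38, for PRP16 of the second step, and Dhx8, for PRP22, which releases the mRNA, were lower as deposited (log2 fold changes −0.86 and −0.62). Neither was called with the factors removed. Ddx23, for PRP28, which displaces U1, was near the filter, at 1.45 ± 0.133 FPKM in WT and 0.579 ± 0.115 FPKM in KO. Its mean over all libraries was 1.01 FPKM, so it passed the filter only through its WT values. It was lower only as deposited (limma adjusted p = 0.00779) and is counted among the 40 lower members. Dhx15, for PRP43, which takes the used spliceosome apart, was the exception: it was not called as deposited (13.1 ± 1.89 and 15.6 ± 2.47 FPKM) and was higher under the 3 rescalings. The share of the library held by the 6 helicases was 0.0109 ± 0.00084% in WT and 0.00885 ± 0.000193% in KO, with no overlap.

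Of 4 factors of the catalytic steps and exon ligation, 1 fell under all scalings, as did 18.0% of all tested genes. Cwc22, which brings the exon junction complex protein EIF4A3 to the spliceosome, was at 46.9, 44.8 and 44.0 FPKM in WT and at 19.3, 18.6 and 16.3 FPKM in KO. Replicates were tight and the groups far apart, a 2.504-fold fall (log2 fold change −1.28, SE 0.108, limma adjusted p = 0.000162). Slu7, which positions the 3′ splice site for the second step, was at 76.97, 74.9 and 73.0 FPKM in WT and at 48.7, 49.99 and 48.6 FPKM in KO (log2 fold change −0.60, limma adjusted p = 0.000585), a call made only as deposited. Cdc40 and Prpf18, for PRP17 and PRP18 of the second step, were likewise lower only as deposited (log2 fold changes −0.60 and −0.36).

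**Figure D3:**
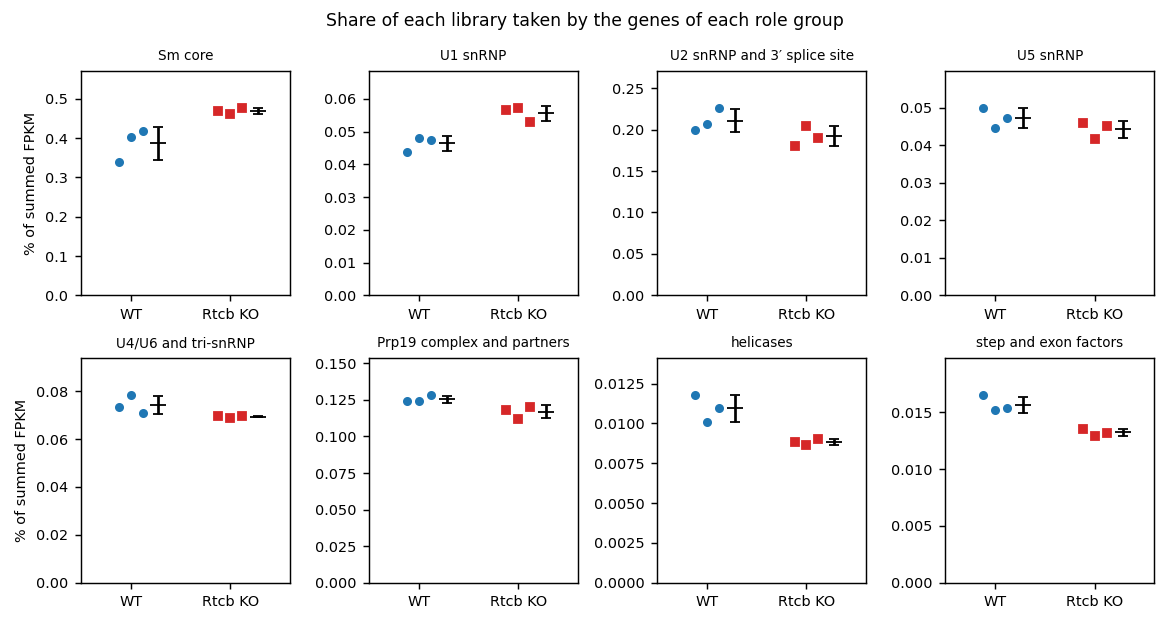
Percent of the summed FPKM of each library (y axis, from 0) taken by the genes of 8 role groups in WT (circles) and KO (squares); the bar beside each set is the mean ± SD of 3 libraries. The Sm core (0.387% and 0.468%) and U1 genes are higher in all KO libraries, the U4/U6 and tri-snRNP, Prp19, helicase and step factor groups are lower in all KO libraries, and the U2 and U5 groups overlap.

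Over all 58 members the shares differed by less than the spread between libraries. They held 0.860%, 0.931% and 0.968% of the summed FPKM in WT and 0.965%, 0.969% and 0.980% in KO. WT 3 lay within the KO range, so the groups overlapped (0.920 ± 0.0550% and 0.971 ± 0.00759%).

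Members with many exons had the lower fold changes. Exon numbers were taken from the longest coding transcript in GENCODE vM21, an annotation of build mm10 that was used for gene properties only. Across the 58 members the Spearman correlation between exon number and log2 fold change was −0.67, and with coding length it was −0.63; across the 10191 tested genes with a value (84.7%) they were −0.31 and −0.28. Genes are not independent replicates and these share their libraries and scaling, so the correlations across them are a description with no test. The 11 members with 5 exons or fewer had a median log2 fold change of −0.27, and 2 of them were lower as deposited, against 39.9% of all tested genes with as many exons. For 6 to 10 exons the median was −0.39 and 12 of 16 were lower (54.5% of all), and for 11 to 20 exons it was −0.62 and 15 of 20 were lower (63.5% of all). All 11 members with 21 or more exons were lower as deposited, at a median of −1.03 (76.7% of all). Of these 11, Prpf6, Ddx46, Dhx8 and Dhx38 were not called with the factors removed. The medians of all tested genes in these ranges were −0.27, −0.44, −0.61 and −0.82, so the trend was also present outside the spliceosome. Snrnp200 has 45 exons, Prpf8 42, Eftud2 28 and Sf3b3 26, whereas Txnl4a has 4 and Snrpb 7. Prpf4 (14 exons) and Cdc5l (16 exons) lie above the trend.

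**Figure D4:**
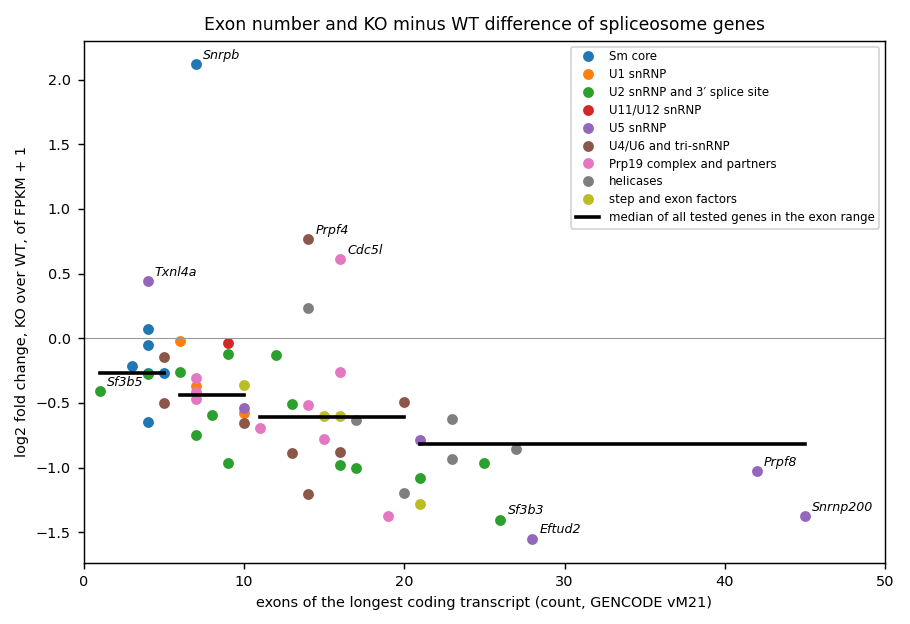
Exon number of the longest coding transcript (x axis) against the deposited log2 fold change of FPKM + 1 (y axis) for the 58 members, coloured by role; horizontal black bars are the medians of all tested genes in 4 exon ranges, from −0.27 to −0.82. All members with 21 or more exons lie below 0, and Snrpb lies alone at 2.12.

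RefSeq promoter sequences (build GRCm38.p6, 250 bases before to 50 after each start) were matched by symbol for 43 of the 58 members, with 49 starts. The letters CCGGAAG, the core recognised by ETS factors such as GABPA, were searched on both strands with 5 other motifs, and overlaps between motifs were allowed. They were present in 42.9% of the members' promoters, against 17.2% of the 10804 promoters of tested genes and 8.86% of all 32851 promoters. By gene, 1696 of the 8495 tested genes with a matched promoter held these letters. Of the matched members, 8 of 12 that fell under all scalings held them and 12 of the 31 others did. Eftud2 and Usp39, which fell, and Snrpb and Txnl4a, which rose, had no matched promoter. Whether the letters go with the fall was not tested. The other motifs were the GC box GGGCGG (55.1% of members' promoters, 59.8% of those of tested genes), CCAAT (42.9% and 38.8%), AAGATGG of YY1 (8.16% and 7.15%), TATAAA (8.16% and 7.79%) and the E box CACGTG (10.2% and 9.83%). A match is a description of letters and was not tested as a site.

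The ETS letters with 10 bases on each side are given for the 8 fallen members that hold them and for Snrpg and Snrpc, which hold them and did not fall; capitals mark the motif (CCGGAAG, or CTTCCGG where it lies on the opposite strand), and each sequence reads 5′ to 3′ along the gene's strand. Where a gene has several matches, the one farthest upstream is shown. All those shown lie upstream of the annotated start, from 7 bases (Sf3a1) to 229 bases (Sf3b3). Among members not shown, some matches lie downstream of it, as in Prpf6 (22 bases) and Dhx8 (20 bases).
Sf3a1 (chr11:4160337-4160363, + strand): gagggcgggaCCGGAAGtgctcccgcg
Sf3a3 (chr4:124714761-124714787, + strand): ccccaagacaCTTCCGGgacacgcgga
Sf3b2 (chr19:5295452-5295478, - strand): gattacgcaaCCGGAAGtttctggaag
Sf3b3 (chr8:110847016-110847042, - strand): ccggtgggcgCTTCCGGgcttgcgagg
Snrnp200 (chr2:127208343-127208369, + strand): agcgggcgtcCCGGAAGcggaagcaag
Prpf3 (chr3:95855794-95855820, - strand): cgtagggcaaCCGGAAGgtttccggtt
Xab2 (chr8:3621440-3621466, - strand): gtgacgtcatCTTCCGGcgcccctttg
Dhx16 (chr17:35879754-35879780, + strand): cgatccctggCCGGAAGagcgcgactc
Snrpg (chr6:86371385-86371411, + strand): ggcgacgcaaCCGGAAGcgtggctctg
Snrpc (chr17:27840038-27840064, + strand): agggcagaggCCGGAAGcggaagtcct

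Lists of 2 further kinds give the surroundings of the core. Of 50 tested genes of other spliceosome proteins, 5 were higher and 26 lower as deposited (9.29% and 54.0% of all tested genes), and the same 5 rose and 7 fell under all 4 scalings (9.23% and 18.0% of all). These shares are near the background and say nothing particular about the list; its median lay 0.11 above that of all tested genes. Among those of smallest p that rose were Rbmx2, an activated-spliceosome protein (9.47 ± 2.89 to 28.5 ± 4.87 FPKM, log2 fold change 1.52, limma adjusted p = 0.000783), and Gpkow, which works with DHX16 (1.22 ± 0.900 to 7.24 ± 3.24 FPKM). Those of smallest p that fell were Bud13, Ik, for the RED protein, and Rbm17, a U2-associated factor. Bud13 went from 72.1 ± 7.03 to 25.3 ± 2.18 FPKM (log2 fold change −1.47). Ik went from 257 ± 11.9 to 126 ± 3.78 FPKM, and Rbm17 from 767 ± 48.7 to 367 ± 21.5 FPKM.

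Genes that build snRNPs and recycle their RNAs held 4 that rose among 23 tested (9.23% of all), with 12 lower as deposited (54.0% of all) and 3 that fell under all scalings (18.0% of all). The shares that were lower or fell are not above the background, and the list median lay 0.15 above that of all tested genes. Coil, for the Cajal body scaffold coilin, was at 6.28, 6.81 and 4.95 FPKM in WT and at 27.2, 14.9 and 23.9 FPKM in KO and rose 3.66-fold (log2 fold change 1.68, limma adjusted p = 0.000491). Tgs1, which caps snRNAs with trimethylguanosine, rose 3.48-fold (1.71 ± 0.405 to 5.97 ± 1.99 FPKM). Gemin2, listed as Sip1, which holds the Sm proteins for the SMN complex, rose 2.59-fold (6.13 ± 0.820 to 15.9 ± 4.56 FPKM). Phax, the snRNA export adaptor, was the other that rose (71.9 ± 1.17 to 110.2 ± 23.6 FPKM) and was named after its values were seen. In all 4, as in the risen members Snrpb, Txnl4a and Prpf4, KO 2 was the lowest KO library. Those of smallest p that fell were Larp7, which binds U6 and 7SK RNA (96.6 ± 7.04 to 46.5 ± 1.79 FPKM), Sart3, which recycles U4/U6 (105 ± 4.48 to 49.1 ± 7.82 FPKM), and Ints1, of the Integrator that trims snRNA ends (4.35 ± 0.807 to 1.27 ± 0.208 FPKM). Smn1, for SMN itself, was lower only as deposited.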

How the data were processed

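Per the labels, 10 oocytes per library were lysed with ERCC spike-in RNA and cDNA was made by Smart-seq2, an oligo-dT primed full-length method; libraries were sequenced as 150-base paired ends. The submitters' processing notes name the tools TopHat2 (2.1.1) and Cufflinks (2.2.1), and build mm9; no annotation or filter is named. What the authors deposited are FPKM for each gene symbol after normalization to the spike-ins. The common factors were found as the fractions, of 373 tried, that turn all values of at least 1 back into numbers with 6 significant digits (100% in each library); they hold up to powers of 10.

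Genes whose mean reached 1 FPKM were tested with limma 3.58.1 (R 4.3.3) on log2(FPKM + 1) (intensity trend, two-sided, Benjamini-Hochberg over 12029 genes); a pseudocount of 1 understates changes of low genes. The step was tested on simulated data. Deviations of libraries with the same replicate number had correlations of 0.14, −0.099 and 0.038 across genes. Those of WT 3 with KO 1 and KO 2 were −0.24 and 0.17, so the check cannot settle whether numbers pair the libraries. The main fit was unpaired. Members, lists and alternatives were chosen with earlier results of these data known, and pair ratios after values were seen. Values in every library are given for members called higher as deposited, members called alike under all 4 scalings, and in each role group the 2 called, non-overlapping members of largest change; for the other lists, the 3 of smallest p in each direction, of which 1 is not reported here. Python 3.11.15, numpy 2.4.6, pandas 2.3.3 and matplotlib 3.10.9 were used.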

Additional observations from a re-analysis of the deposited data

How the results depend on the processing

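The scaling sets the split between higher and lower genes. All tested genes gave 1118 higher and 6501 lower as deposited, 2283 and 3107 with equal totals, 2813 and 2555 with median ratios and 3097 and 2161 with the factors removed. The members gave 3 and 40, 10 and 19, 12 and 17, and 12 and 14 in the same order. Other spliceosome genes gave 13 and 13 with equal totals, 14 and 9 with median ratios and 17 and 7 with the factors removed; snRNP assembly genes gave 3 lower under each, and 7 and 8 higher under the latter 2. With the filter raised to 10 FPKM, 490 were higher, where fewer genes were tested; Prpf4 is not among them. The members' median relative to all tested genes (−0.088) was −0.19 with a pseudocount of 5 and −0.37 with no filter, where genes near 0 FPKM join the comparison. Snrpa turned positive with equal totals (0.058), median ratios (0.15) and the factors removed (0.21).

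Leaving out each library gave 2 to 4 members higher and 34 to 43 lower, 774 to 1347 and 5607 to 6240 of all genes, and a member share in KO over WT of 1.02 to 1.08. With the factors removed as well, added after seeing the data, the members called higher and lower were 11 and 10 without WT 1, 12 and 11 without WT 2, 15 and 11 without WT 3, 10 and 9 without KO 1, 12 and 13 without KO 2, and 9 and 10 without KO 3. With the replicate block, among the 23 members given by library, the call of Snrpd3 alone was lost (limma adjusted p = 0.077). It was also lost with no filter (0.0989) and without intensity trend (0.0653). Depth is unknown, so no counting error could be given.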
